A study of Mus musculus with 9 samples.

Results

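The genes that encode the proteins of the cytosolic ribosome were followed in the liver of fed and fasted WT and p21KO mice. Members were chosen by name alone: every row whose gene name begins with Rpl or Rps and a digit, together with Rplp0, Rplp1, Rplp2 and Rpsa, and without the Rps6k kinases. The rule found 91 genes among 23746 rows. Of these, 46 were named for proteins of the large subunit, 31 for proteins of the small subunit and 8 for paralogues of such proteins (Rpl3l, Rpl7l1, Rpl10l, Rpl22l1, Rpl36al, Rpl39l, Rps27l and Rps4y2). A further 5 carried pseudogene names, and Rps19bp1 is named for a protein that binds a ribosomal protein and is no subunit itself.

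Liver RNA of 9 mice on a C57Bl/6 background (C57BL6J/Ola.Hsd in the study's methods) was sequenced, 1 library per mouse. The groups were WT mice with free access to food (n = 3), WT mice without food for 24 h (n = 2), p21KO mice with free access to food (n = 2) and p21KO mice without food for 24 h (n = 2). The p21KO mice lack p21, the cyclin-dependent kinase inhibitor encoded by Cdkn1a, in every tissue, and the study's methods describe males of 10 to 16 weeks. The comparisons asked how fasting changed the liver transcriptome in each genotype and how the genotypes differed in each diet.

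A ribosome consists of a small subunit, which reads the mRNA, and a large subunit, which joins the amino acids. Each subunit holds many proteins, most of them present in 1 copy, and their genes are among the most highly transcribed in any cell. Their mRNAs begin with a run of pyrimidines, the 5′ terminal oligopyrimidine (TOP) motif, through which mTORC1 controls their translation according to nutrient supply. In liver, ribosome content is known to fall during fasting and to recover on refeeding.

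The order of the rows limits what can be read from the deposited table. The names agree best with 1 column, p21KO fasted replicate 2, here called the reference library, and in the other 8 columns many values stood beside another gene's name. The reference library had been picked from the values, partly from ribosomal protein genes, so the high levels of these genes in it are a description. Elsewhere, only rows with at least 50 FPKM (fragments per kilobase of transcript scaled to the mapped reads) in every column compared were used. In all 9 columns this left 80 rows, or 0.337% of all, and 10 of the 91 members. Of these 80 rows, 66, with all 10 members, lay within 4-fold over the 9 columns. The others may still hold displaced values. No pair of columns held identical values. Over the 80 rows, libraries of the same group had a median Spearman correlation of 0.88 (6 pairs) and libraries of different groups 0.82 (30 pairs). Column sums ranged from 349965 to 440780 FPKM, and the highest single value was 8367 and 12343 FPKM in the p21KO fasted libraries against 18703 to 29662 FPKM in the other 7. In the reference library 7 of 8 hepatocyte markers had at least 1 FPKM and summed to 20880 FPKM, although the row of Alb, which encodes albumin, was listed at 0. The summed level of the markers was 71.2 FPKM for Kupffer cells or leukocytes (7 of 8 at 1 FPKM or more), 61.4 FPKM for erythroid cells (3 of 6), 60.05 FPKM for stellate cells (3 of 5) and 18.5 FPKM for endothelial cells (5 of 5), and no cholangiocyte marker (0 of 4) reached 1 FPKM. The row of Cdkn1a held 2.27 FPKM in this p21KO library and 0 to 0.437 FPKM in the other 8 columns. Since those columns could not be matched to that name, the targeted gene did not check the genotype labels, and genotypes are given here as labelled. In whole liver, fewer cells of a type and less RNA per cell cannot be told apart.

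The stretches just upstream of members that could be compared between groups show how different these regions are. Each is the 100 bases before the gene's start in RefSeq (GRCm38.p6), with matches to the ETS-type motif CCGGAAG, on either strand, in capitals. Rps21 lies at chr2:180257379-180258444 on the plus strand, Rpl37a at chr1:72711260-72713813 on the plus strand, and Rps3a, which RefSeq calls Rps3a1, at chr3:86137940-86142668 on the minus strand. Rps21 and Rpl37a are shown because their values were lower in every fasted than in every fed library, as were those of Rplp1, which has no entry in the promoter table, and Rps3a because its values varied least among the 10 members.
Rps21 (chr2:180257279-180257378): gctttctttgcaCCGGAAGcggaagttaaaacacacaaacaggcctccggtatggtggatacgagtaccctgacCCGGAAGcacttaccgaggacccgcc
Rpl37a (chr1:72711160-72711259): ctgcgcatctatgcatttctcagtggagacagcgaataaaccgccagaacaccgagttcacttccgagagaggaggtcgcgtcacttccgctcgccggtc
Rps3a (chr3:86142669-86142768): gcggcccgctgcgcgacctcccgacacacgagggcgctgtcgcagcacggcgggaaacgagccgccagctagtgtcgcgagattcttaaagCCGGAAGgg
The motif stood at 2 places before Rps21, at 1 before Rps3a and not in this window of Rpl37a. Over the whole promoter windows of RefSeq, 66 of the 91 members had an entry and 39.4% of them (26 of 66) held CCGGAAG on either strand, against 9.93% of all 27025 symbols with an entry. The YY1-type motif AAGATGGC was found in 9.09% of the members and 3.19% of all symbols. CTCTTTC, a pyrimidine run of the kind that TOP mRNAs start with, was found in 27.3% and 9.28%, and the TATA box motif TATAAA in 12.1% and 15.7%. Every motif was counted on either strand and anywhere in the window. A match to CTCTTTC therefore need not lie at the start of an mRNA or on its strand. These are matches of letters and do not show that a factor was bound.

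In the reference library, ribosomal protein genes were among the most abundant mRNAs. The 77 genes named for subunit proteins had a median of 118.5 FPKM (quartiles 81.5 and 149.7 FPKM), and 70 of them had at least 50 FPKM. Counting all 91 members, 72 (79.1%) reached 50 FPKM, compared with 854 of all 23746 rows (3.60%). At 100 FPKM or more there were 48 members among 463 rows, so members made up 10.4% of these rows. Their values added up to 9518 FPKM, which was 2.61% of the column's sum. They were less prominent at the very top, where 7 members stood among the 200 highest rows. There is 1 library behind these levels, so they have no error.

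Levels of different genes can be set side by side in FPKM, which corrects for transcript length. The median was 105.6 FPKM for the 46 large-subunit genes, of which 41 reached 50 FPKM, and 129.5 FPKM for the 31 small-subunit genes, of which 29 did. The highest value was that of Rpl10 (292.8 FPKM), whose protein joins the large subunit late in its assembly. It was followed by Rpl4 (250.8 FPKM), Rps18 (230.6 FPKM), Rpl41 (229.2 FPKM), Rps2 (228.8 FPKM), Rpl7 (220.3 FPKM), Rps3a (218.0 FPKM), Rpl19 (200.9 FPKM), Rps4x (190.2 FPKM) and Rplp1 (188.9 FPKM). Both subunits were thus represented among the 10 highest members, with 6 large-subunit and 4 small-subunit genes. Rpl41 encodes the smallest ribosomal protein.

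Genes with known functions beside the ribosome's core had levels within the same range. Rplp0, Rplp1 and Rplp2 encode the acidic stalk that recruits translation factors, and had 171.4, 188.9 and 43.4 FPKM. Rpsa, which also encodes the laminin receptor, had 124.5 FPKM. Rps6, the substrate of S6 kinase downstream of mTORC1, had 162.0 FPKM. Rpl5 and Rpl11 bind the 5S rRNA and, when ribosome assembly fails, the p53 regulator Mdm2, and they had 100.5 and 165.2 FPKM. Rps27a encodes ubiquitin fused to a ribosomal protein and had 153.1 FPKM. Of subunit genes that the naming rule leaves out, Fau had 155.9 FPKM and Gnb2l1, which encodes RACK1, 144.3 FPKM. Both were thus above the median of the 77 subunit genes.

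The low end of the ranking was made up mostly of paralogues and pseudogenes. Rpl10l, Rpl31-ps12 and Rpl39l were listed at 0. Rpl30 was listed at close to 0 (1.22e-05 FPKM), Rpl3l at 0.048 FPKM, Rps27 at 0.803 FPKM, Rps19-ps3 at 0.812 FPKM, Rps15a-ps6 at 1.20 FPKM, Rps19bp1 at 4.69 FPKM and Rps15a at 7.42 FPKM. Rpl30, Rps27 and Rps15a are single subunit proteins of every ribosome, so their rows stood far below those of their partners. The row of Rps27 did not exceed 1.00 FPKM and that of Rpl30 did not exceed 2.16 FPKM in any of the 9 columns. Outside the reference column such low values may belong to other genes, so they do not show the level of Rps27 or Rpl30. The names fit the reference column best, but whether they fit each of its rows was not tested. The row of Rps15a held 43.8 to 72.9 FPKM in 7 of the other 8 columns and 0.838 FPKM in p21KO fed replicate 2. Genes with several near-identical copies may share reads, because reads were allowed up to 5 places in the genome, so the split between parent genes, paralogues and pseudogenes is uncertain.

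Among the paralogues, pairs could be compared within the reference library. Rps27l, which encodes a close relative of Rps27 and is known to be induced by p53, had 67.7 FPKM against 0.803 FPKM for Rps27. Rpl36al had 90.9 FPKM against 78.9 FPKM for Rpl36a. Rpl22l1 had 15.96 FPKM and Rpl22 19.7 FPKM, both far below the median of the subunit genes. Rpl7l1 had 14.9 FPKM against 220.3 FPKM for Rpl7, while Rpl3l, which is known from muscle, and Rpl10l, which is known from testis, were at or near 0 beside 138.5 FPKM for Rpl3 and 292.8 FPKM for Rpl10. In the plot of levels by rank, the paralogues are spread over the lower part of the ranking.

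**Figure D1:**
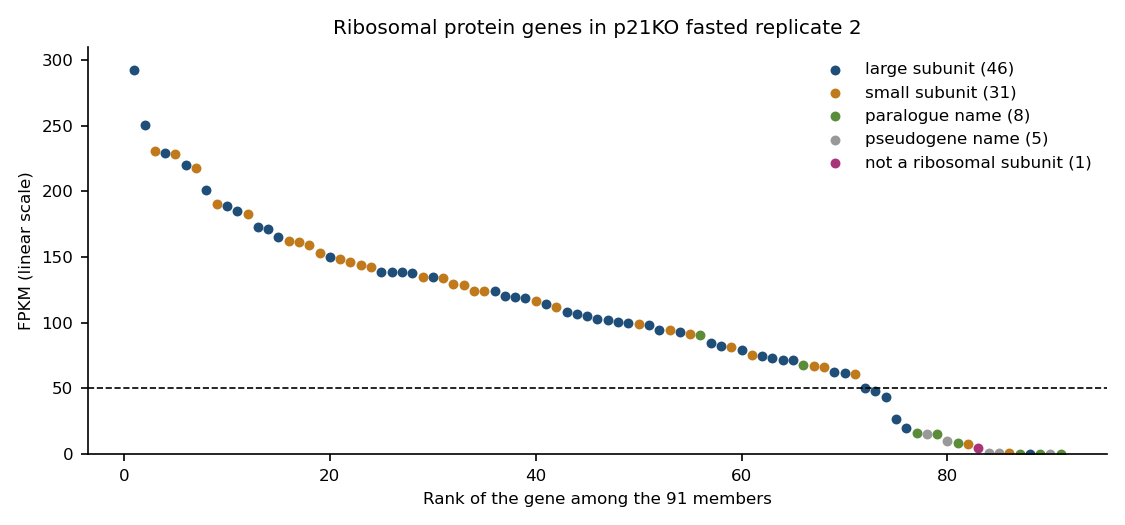
Level of each of the 91 members (FPKM, vertical axis, linear scale) in p21KO fasted replicate 2 against its rank among the members (horizontal axis), coloured by kind. The dashed line is at 50 FPKM, which 72 members reached, and large-subunit and small-subunit genes are mixed along the whole range.

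Other genes of the translation machinery were at lower levels. The 40 translation factors had a median of 34.3 FPKM, and 12 of them (30%) reached 50 FPKM. The 21 other genes with TOP mRNAs, some of which are translation factors too, had a median of 54.8 FPKM. The 46 genes of ribosome biogenesis had a median of 6.44 FPKM and the 25 genes of mTORC1 and the S6 kinases 4.06 FPKM, with none at 50 FPKM in either list. Mitochondrial ribosomal proteins, which form the ribosome inside mitochondria, had a median of 13.3 FPKM over 76 genes, and 1 of them reached 50 FPKM. Subunits of the proteasome, another large complex with fixed proportions, had a median of 38.5 FPKM over 40 genes. Eef1a1 and Eef2, the elongation factors, had 1697 and 354.6 FPKM, and Tpt1, another abundant TOP mRNA, 591.4 FPKM.

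In the other 8 columns, the rows of the members split into values like those of the reference library and values far below them. The 72 members with at least 50 FPKM in the reference library gave 576 values elsewhere. Of these, 306 (53.1%) were at 50 FPKM or more, and 300 of those 306 (98.0%) lay within 2-fold of the reference value. Their median ratio to it was 1.19. Only values of at least 50 FPKM entered these ratios, so the cut itself partly excluded low ones. Few values lay between, with 35 at 10 to 50 FPKM, 88 at 1 to 10 FPKM and 147 below 1 FPKM. The row of Rps6 shows the pattern. It held 162.0 FPKM in the reference library, 169.3 FPKM in WT fasted replicate 2 and 143.5 FPKM in p21KO fed replicate 2, but at most 0.103 FPKM in the other 6.

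Between 33 and 44 members reached 50 FPKM in each of the 8 other columns, against 72 in the reference library. By gene, 10 members reached 50 FPKM in all 9 columns, 24 in 6 to 8, 44 in 1 to 5, and 13 in none. The subset that could be compared was therefore set by the table's row order as well as by expression, and its results describe those 10 genes and not the 91. A gene that fell below 50 FPKM in any library would also have been left out.

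**Figure D2:**
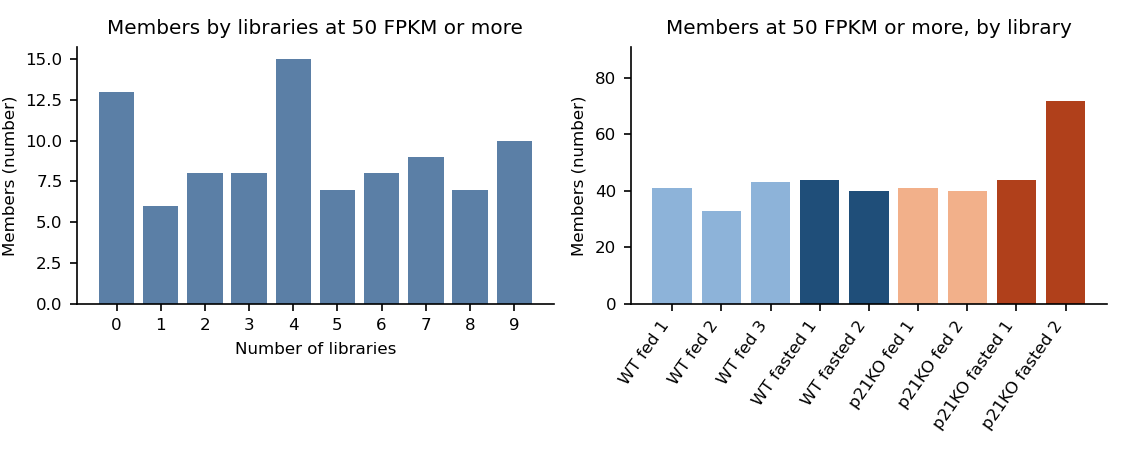
Left, number of members (vertical axis) by the number of libraries in which their row held at least 50 FPKM (horizontal axis), with 10 members at 9 libraries and 13 at 0. Right, number of the 91 members at 50 FPKM or more in each library, with 72 in p21KO fasted replicate 2 and 33 to 44 in the others.

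The 10 members with at least 50 FPKM in every library were 6 genes of the large subunit (Rpl7a, Rpl10, Rpl19, Rpl24, Rpl37a and the stalk gene Rplp1), 3 of the small subunit (Rps3a, Rps21 and Rps23) and the paralogue Rps27l. They kept nearly the same order in every library. Between libraries, the Spearman correlation of the 10 values had a median of 0.95 and a range of 0.93 to 1 over pairs that share the same genes. Variation over the 9 libraries was lowest for Rps3a (SD of log2 FPKM 0.09), Rpl19 (0.11) and Rpl10 (0.11). The highest SDs of log2 FPKM were those of Rps21 (0.33), Rpl37a (0.28) and Rplp1 (0.27).

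In WT mice, the 3 members that varied most stood lower after fasting, but none of the 10 passed the test. Rps21, a small protein of the small subunit, had 132.2, 113.2 and 98.8 FPKM in the fed mice and 77.1 and 83.1 FPKM in the fasted mice. All fasted values lay below all fed ones, and the group means were 114.7 ± 16.8 (SD, n = 3) and 80.1 ± 4.24 FPKM (SD, n = 2). Rplp1 had 330.7, 280.1 and 275.7 FPKM in the fed and 222.3 and 206.9 FPKM in the fasted mice. Rpl37a, of the large subunit, had 125.8, 106.0 and 100.1 FPKM in the fed and 85.9 and 78.2 FPKM in the fasted mice. The fasted and fed values of Rplp1 and Rpl37a did not overlap either.

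On the scale of log2(FPKM + 1), the difference between fasted and fed WT mice was -0.50 for Rps21 (SE 0.18, 95% interval -0.94 to -0.06), -0.46 for Rplp1 (SE 0.17, -0.85 to -0.06) and -0.42 for Rpl37a (SE 0.15, -0.78 to -0.06). Each had an adjusted p of 0.121 (limma, Benjamini-Hochberg over the 80 rows). The next differences were -0.25 for Rpl7a (adjusted p = 0.213 with limma), -0.20 for Rpl10 (0.219) and -0.12 for Rpl19 (0.527). None of the 10 members was called at an adjusted p under 0.05, against 11 of the 80 rows (13.8%), of which 5 were higher and 6 lower (7.5% lower) in the fasted mice. With columns scaled to the same median, 3 members were called lower among 18 rows. By limma's unadjusted p under 0.05, 3 members and 26 of the 80 rows (32.5%) were counted. The 10 members had a median difference of -0.16, beside -0.05 over all 80 rows. All 10 differences were below 0 (8 with quantile normalization), as were 53.8% of the 80 rows. In 8 of the 10 members both fasted values lay below all fed values, as in 38.8% of the 80 rows.

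**Figure D3:**
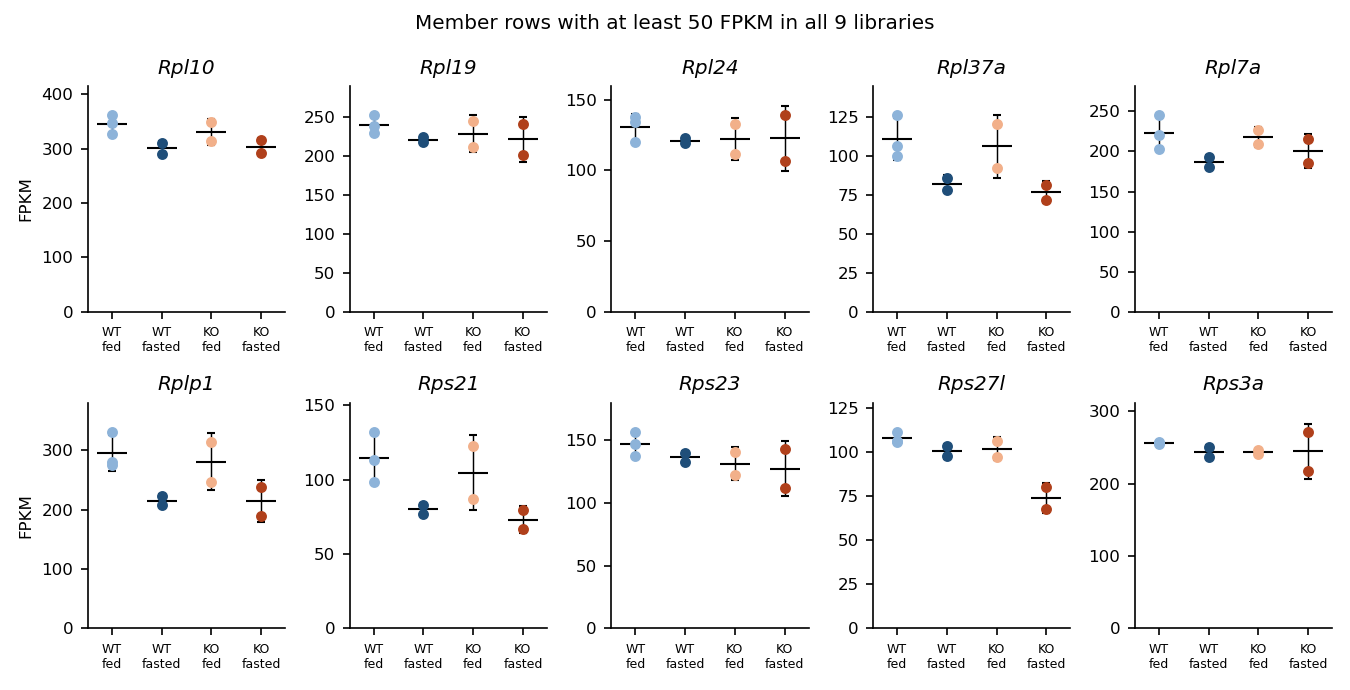
FPKM (vertical axes, from 0) of the 10 members with at least 50 FPKM in all libraries, by group. Points are mice, horizontal lines are means and bars are ± SD (n = 3 for WT fed, n = 2 for the other groups). For Rps21, Rpl37a and Rplp1 all 4 fasted values lie below all 5 fed values, and for Rps27l both p21KO fasted values lie below all others.

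In p21KO mice, Rps27l was lower after fasting and was the only 1 of the 10 members that passed the test. It had 106.5 and 97.3 FPKM in the fed and 80.0 and 67.7 FPKM in the fasted p21KO mice, with means of 101.9 ± 6.44 and 73.9 ± 8.70 FPKM (SD, n = 2 each). In WT mice, Rps27l had 111.4, 105.9 and 106.5 FPKM when fed and 103.4 and 97.5 FPKM when fasted. Both p21KO fasted values thus lay below the values of all 7 other libraries. The difference between fasted and fed p21KO mice was -0.46 on the log2(FPKM + 1) scale (SE 0.10, 95% interval -0.71 to -0.21, adjusted p = 0.0346 with limma). The call depended on the processing and was made in 11 of 24 settings. It was also lost with a replicate block (adjusted p = 0.0509 with limma) and at 10 FPKM in all columns (0.0947), and at 100 FPKM the gene was not tested. It was lost without any 1 of 7 libraries, with an adjusted p from limma of 0.0543, 0.0528 and 0.0704 without WT fed replicates 1, 2 and 3, of 0.0645 and 0.0641 without WT fasted replicates 1 and 2, and of 0.115 and 0.0630 without p21KO fed replicates 1 and 2. It was kept without either p21KO fasted library (0.0277 and 0.0425). With all columns scaled to the same sum the difference was -0.19 (adjusted p = 0.38 with limma), and with filter and fit on the p21KO libraries alone it stayed at -0.46 with an adjusted p of 0.212 by limma.

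The same 3 short members as in WT mice came next in p21KO mice, without passing the test. Rps21 had 122.5 and 86.9 FPKM in the fed and 79.6 and 66.9 FPKM in the fasted p21KO mice. Rplp1 had 314.3 and 246.6 FPKM when fed and 238.8 and 188.9 FPKM when fasted. Rpl37a had 120.1 and 91.9 FPKM when fed and 81.5 and 71.9 FPKM when fasted. In all 3, p21KO fed replicate 2 was closer to the fasted mice than p21KO fed replicate 1 was, yet the fed and fasted values did not overlap. The log2 differences were -0.49 for Rps21 (SE 0.20, adjusted p = 0.148), -0.45 for Rpl37a (SE 0.17, adjusted p = 0.12) and -0.39 for Rplp1 (SE 0.18, adjusted p = 0.195), all by limma. Rpl7a (-0.13) and Rpl10 (-0.12) followed, while Rps3a and Rpl24 had differences of less than 0.01 in size.

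With Rps27l as the 1 member called of 10 in p21KO mice, the background was 13 of the 80 rows (16.2%), 8 of them higher and 5 lower (6.25% lower) in fasted mice. The median difference was -0.13 over the members and -0.07 over all 80 rows. All 10 members had a difference below 0, as did 60.0% of the rows. This direction depended on single mice, with 6 of the 10 below 0 without p21KO fed replicate 1 (members' median -0.06). Without p21KO fasted replicate 2 there were also 6 (members' median -0.04), and with quantile normalization 7. In 4 members (Rps21, Rpl37a, Rplp1 and Rps27l) both fasted values lay below both fed ones, as in 31.2% of the rows. The calls moved with scaling. The members called were 4 at the same median and 0 at the same sum. With the columns at the same sum the split of the rows called was 14 rows higher and 2 lower in p21KO mice, and at the same median 6 higher and 20 lower. In WT mice it was 4 higher and 3 lower at the same sum, and 5 higher and 13 lower at the same median. Scaling to the same sum moved the median of all 80 rows in p21KO mice from -0.07 to 0.20, and 4 of the 10 members instead of 10 were then below 0. In p21KO mice, the members' median minus the median of all rows was -0.06 as deposited, -0.05 at the same sum and -0.06 at the same median. In WT mice it was -0.11 with each of these 3 scalings. Dividing a column by 1 factor shifts all its rows nearly alike, so this difference could hardly move. With quantile normalization, which can move it, the difference was -0.12 in p21KO and -0.18 in WT mice.

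**Figure D4:**
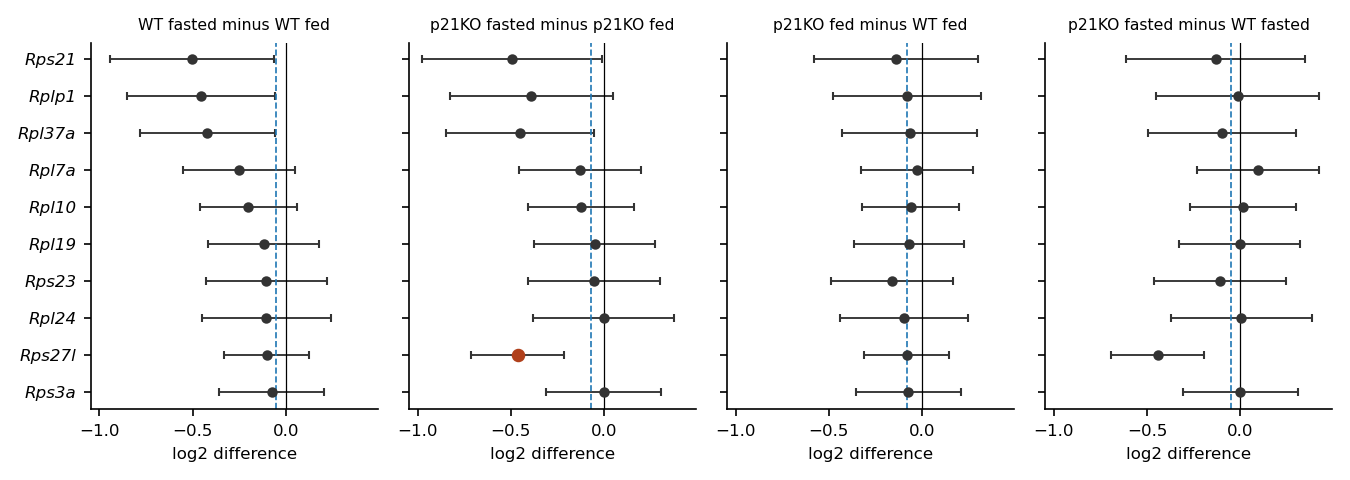
Difference in log2(FPKM + 1) (horizontal axes) of the 10 members in the 4 comparisons, as points with 95% intervals from limma. The solid line is at 0, the dashed line is the median of all 80 rows, and the filled red point marks Rps27l in fasted against fed p21KO mice, the only call at an adjusted p under 0.05.

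Fasting was also compared over both genotypes, a contrast added after the data had been seen. Rps21 (-0.50, SE 0.14), Rpl37a (-0.44, SE 0.11), Rplp1 (-0.42, SE 0.12) and Rps27l (-0.28, SE 0.07) were called lower in the 4 fasted than in the 5 fed libraries, with adjusted p of 0.0286, 0.0249, 0.0335 and 0.0249 by limma. For Rps21 the values were 66.9 to 83.1 FPKM in fasted and 86.9 to 132.2 FPKM in fed mice, and for Rplp1 they were 188.9 to 238.8 and 246.6 to 330.7 FPKM. Those of Rpl37a were 71.9 to 85.9 FPKM in fasted and 91.9 to 125.8 FPKM in fed mice. In these 3 genes the fasted and fed libraries did not overlap, as in 18.8% of the 80 rows with all fasted values below all fed ones. All 10 members had a difference below 0, as did 58.8% of the rows. With quantile normalization 8 of the 10 were below 0. Without p21KO fed replicate 1 there were 9, and without p21KO fasted replicate 2 there were 7. The 4 calls of 10 compare with 31 of 80 rows (38.8%), or 22.5% in the lower direction. The share of members called in either direction was thus near that of all rows. With columns scaled to the same sum 0 of the 10 members were called (members' median -0.03, 6 of 10 below 0), and at the same median 6 were. At 10 FPKM in all columns none of the 4 genes was called. Their adjusted p by limma was then 0.0651 for Rps21, 0.0598 for Rpl37a, 0.0737 for Rplp1 and 0.0805 for Rps27l. No member was called without WT fed replicate 1, WT fasted replicate 1 or 2, or p21KO fed replicate 1. Without p21KO fasted replicate 2, 1 member was called, without WT fed replicate 2 there were 2, and without WT fed replicate 3 there were 3.

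The fasting difference of the 10 members went with the length of their transcripts. The 4 shortest transcripts were those of Rps21 (394 bases), Rplp1 and Rps27l (499 bases each) and Rpl37a (558 bases), by the GENCODE annotation of GRCm38, and the other 6 ranged from 677 (Rpl24) to 977 bases (Rps3a). Up to 600 bases, the 4 members had a median log2 difference of -0.44 in WT and -0.46 in p21KO mice, against -0.11 and -0.05 for the 6 longer ones. Across the 10 genes, the log2 difference and the log2 transcript length had a Pearson correlation of 0.68 in WT mice (Spearman 0.54) and 0.88 in p21KO mice (Spearman 0.71). These genes share the same libraries and are not independent replicates.

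Rows that were not members did not show this over their full range of lengths, with a Pearson correlation of 0.03 in WT and 0.05 in p21KO mice over 67 rows. The 6 short ones, Mif, Uqcr11, Atox1, Atp5mpl, Atp5e and Apoc4, had a median of -0.19 in WT and -0.29 in p21KO mice, and the 61 longer ones 0.01 and -0.03. With the filter applied to the compared groups alone, the members' Pearson correlation was 0.00 in WT mice (13 genes, Spearman 0.26) and 0.45 in p21KO mice (18 genes, Spearman 0.39). In WT mice this filter added Rpl27, Rpl29 and Rps15a, whose transcript is listed at 5179 bases with 390 coding bases. The difference of Rpl27 (0.49) includes 204.7 FPKM in WT fasted replicate 1, which stood apart on its row. The part of transcript length in the fasting differences was not tested.

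**Figure D5:**
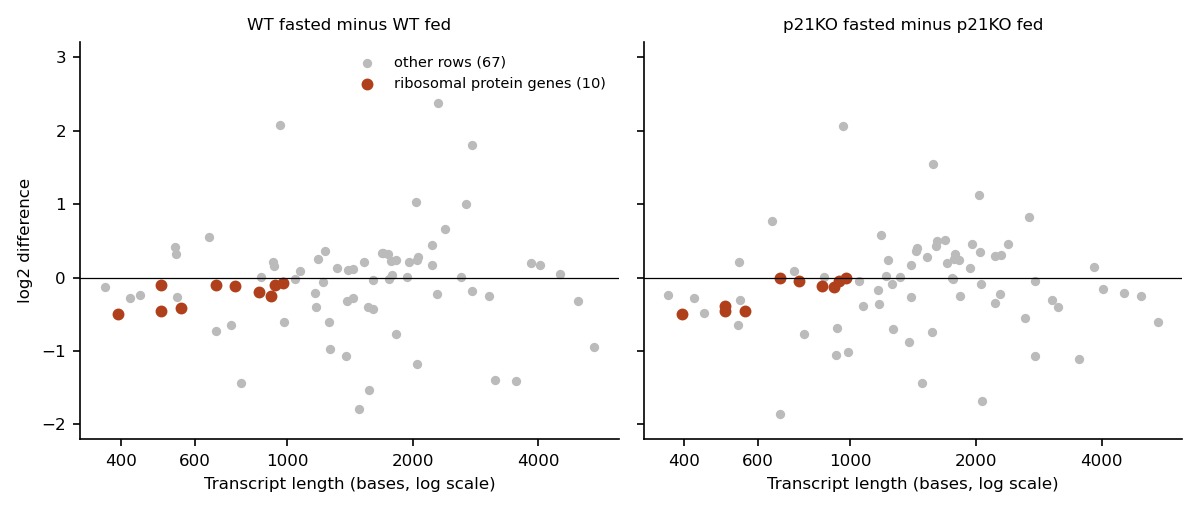
Difference in log2(FPKM + 1) between fasted and fed mice (vertical axis) against transcript length in bases (horizontal axis, log scale) in WT (left) and p21KO mice (right). Red points are the 10 members and grey points the 67 other rows with a known length, and among the red points the lowest are Rps21, Rplp1 and Rpl37a in WT mice and these 3 and Rps27l in p21KO mice.

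Between fed p21KO and fed WT mice, none of the 10 members passed the test. The largest differences in size were -0.16 for Rps23 (95% interval -0.49 to 0.16), -0.14 for Rps21 (-0.58 to 0.30), -0.10 for Rpl24 (-0.44 to 0.25), -0.08 for Rps27l (-0.31 to 0.14), -0.08 for Rplp1 (-0.48 to 0.32) and -0.07 for Rps3a (-0.36 to 0.21). Rps23, a protein of the decoding centre, had 156.7, 146.7 and 137.5 FPKM in fed WT and 140.9 and 122.1 FPKM in fed p21KO mice, and the groups overlapped. Only Rps3a had all p21KO values (246.5 and 240.7 FPKM) below all WT values (255.5, 255.8 and 257.9 FPKM), as 22.5% of the rows did. No row was called by limma (0.0% of 80), and 5 rows (6.25%) had an unadjusted p under 0.05, none of them a member. The median difference was -0.08 for the members and -0.08 for all rows. All 10 members were below 0 as deposited, as were 70.0% of the rows, but with columns scaled to the same median only 2 of the 10 were.

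Among the 10 members, fasted p21KO and fasted WT mice differed most in Rps27l, without passing the test. Its values were 80.0 and 67.7 FPKM in fasted p21KO and 103.4 and 97.5 FPKM in fasted WT mice. The log2 difference was -0.44 (SE 0.10, 95% interval -0.69 to -0.19, adjusted p = 0.209 with limma over 80 rows). Its adjusted p lay between 0.0703 and 1 over 24 settings, none of which gave a call. In the other members the difference was between -0.13 (Rps21) and 0.09 (Rpl7a), with -0.11 for Rps23, -0.10 for Rpl37a, 0.02 for Rpl10 and -0.01 for Rplp1. Of all rows 0.0% were called, and 5 (6.25%), Rps27l among them, had an unadjusted p under 0.05. Both p21KO values lay below both WT values for Rps27l alone among the members and for 22.5% of the rows. Below 0 were 6 of the 10 members and 62.5% of the rows, and the median difference was -0.01 over the members and -0.05 over all rows.

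The difference between the genotypes in their response to fasting was tested as an interaction. For Rps27l it was -0.36 on the log2 scale (SE 0.14, 95% interval -0.70 to -0.02, adjusted p = 0.81 with limma), so the call in p21KO mice and its lack in WT mice are not shown to differ. For the other 9 members the interaction ranged from -0.03 (Rpl37a) to 0.12 (Rpl7a), and the 95% intervals of all 9 included 0. The interval was -0.64 to 0.66 for Rps21, -0.57 to 0.51 for Rpl37a and -0.52 to 0.66 for Rplp1, so a difference of such a size between the genotypes could have gone undetected. No row was called (0.0% of 80), and 3 rows (3.75%), Rps27l among them, had an unadjusted p under 0.05.

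More members could be compared when the filter was applied to the libraries of each comparison alone, and none of them was called by limma. In WT mice 13 members and 145 rows were tested, of which 28 rows were called (19.3%). In p21KO mice 18 members were tested, with 7 of 191 rows called (3.66%). The largest difference in size there was that of Rpl36al, at -0.62 (SE 0.22, adjusted p = 0.188 with limma), with 156.7 and 151.1 FPKM in fed and 109.5 and 90.9 FPKM in fasted p21KO mice. The row of Rpl36al held 158.3, 148.5 and 147.0 FPKM in the fed WT mice and 108.7 FPKM in WT fasted replicate 1, but was listed at 0 in WT fasted replicate 2 and could not be tested in WT mice. Among members that only this filter let in, it was followed by Rps29, a short protein of the small subunit, at -0.49 (adjusted p = 0.349 with limma), with 177.8 and 148.1 FPKM in fed and 140.2 and 94.3 FPKM in fasted p21KO mice. For the genotype comparisons 17 members of 183 rows were tested in fed and 20 members of 210 rows in fasted mice, without a call (0.0% in both), while 18 rows (9.84%) and 9 rows (4.29%) had an unadjusted p under 0.05.

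Few related genes from the other lists passed the filter, and none of them was called lower in fasted mice. Eef1b2, a subunit of the elongation factor that reloads Eef1a1 and itself a TOP mRNA, had 51.0 to 59.1 FPKM in the 5 fed and 54.8 to 60.7 FPKM in the 4 fasted libraries, with log2 differences of 0.01 in WT and 0.13 in p21KO mice. It was the only 1 of 40 translation factors that could be tested. Mrpl12, of the mitochondrial ribosome, had 54.2 to 57.2 FPKM in fed and 53.1 to 64.5 FPKM in fasted libraries, and differed by 0.12 and 0.00. Neither was called. Of the proteasome genes, Psmb4 was higher in fasted than in fed p21KO mice (0.58, SE 0.14, adjusted p = 0.0375 with limma), with 86.3 and 82.5 FPKM in the fed and 144.7 and 111.1 FPKM in the fasted mice, while Psma4 (-0.17, adjusted p = 0.36 with limma) was not called. No gene of ribosome biogenesis or of mTORC1 and the S6 kinases reached 50 FPKM in all libraries.

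The summed level of the 10 members did not overlap between fasted and fed WT mice in FPKM, and its share of the tested rows did. The sum was 2095, 1962 and 1856 FPKM in fed WT and 1666 and 1706 FPKM in fasted WT mice, and 2004 and 1733 FPKM in fed p21KO and 1805 and 1510 FPKM in fasted p21KO mice. The groups overlapped in p21KO mice. Divided by the median of the 80 rows in each library, the sum was 14.9, 13.5 and 13.9 in fed WT, 11.2 and 11.7 in fasted WT, 14.98 and 14.18 in fed p21KO and 12.7 and 10.4 in fasted p21KO mice, without overlap in either genotype. As a share of the FPKM of the 80 rows, the members made up 4.61%, 4.81% and 3.76% in fed WT, 4.61% and 4.70% in fasted WT, 4.06% and 3.46% in fed p21KO and 6.18% and 3.80% in fasted p21KO mice. The high share in p21KO fasted replicate 1 came with the lowest column sum and the lowest highest value of the 9 libraries, and their part in it was not tested. Rows that may hold displaced values also entered the FPKM of the 80 rows, and their part was not tested either.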

How the data were processed

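Liver RNA of 9 mice was sequenced. By the labels, mRNA was selected by its poly(A) tail and prepared with a TruSeq kit that keeps strand, while the study's methods give a SMARTer low-input kit and single reads of 50 bases. The deposited table holds the authors' FPKM values for each mouse, made with TopHat and Cufflinks on GRCm38/mm10, with up to 2 mismatches and 5 genomic places per read. Tools in the submitters' processing notes were FastQC, Cufflinks 2.2.1 and 1.3.0, SAMtools 0.1.16, Bowtie 0.12.7 and TopHat2 2.0.4, and the study's methods name partly other versions. No scaling between libraries is stated. FPKM gives no counts, so the depth is unknown and no counting interval is given.

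Groups were taken from the labels. Columns do not share 1 row order, so rows were kept at 50 FPKM or more in all columns compared. This favours stable, abundant genes, but rows that varied more than 4-fold over the 9 columns also passed. Such rows entered the background shares, the members' share of the FPKM of the 80 rows, the medians of all rows and the variance trend. With the 66 rows within 4-fold alone, 9 rows were called by limma for WT fasting, with 0 members. For p21KO fasting 14 rows were called, with 1 member. Limma 3.58.1 (R 4.3.3) was fitted on log2(FPKM + 1) with 4 group means and a trend in the variance, checked on simulated data, with Benjamini-Hochberg adjustment over all rows kept and calls at an adjusted p under 0.05. A log2 difference with a pseudocount of 1 understates changes of low genes. Each library is labelled as a separate sample, and the study describes mice, so p-values measure the spread between mice. Alternatives were other pseudocounts, filters, scalings, variance models, a replicate block, the libraries of 1 comparison alone, and each library left out. The members and lists were chosen with earlier results of these data known. Named were the 10 highest and 10 lowest members in the reference library, every member called, the 6 largest differences per comparison, the 3 most and least variable members, and fixed genes (the stalk, Rpsa, Rps6, Rpl5, Rpl11, Rpl41, Rps27a, paralogue pairs, Eef1a1, Eef2 and Tpt1). Lengths came from GENCODE (77 of the 80 rows and 85 of the 91 members matched) and positions and upstream bases from RefSeq (GRCm38.p6). Python 3.11.15, pandas 2.3.3, SciPy 1.17.1 and matplotlib 3.10.9 were used.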

Additional observations from a re-analysis of the deposited data

How the results depend on the processing

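Row order, not depth alone, limits these results, since 10 of the 91 members could be compared in all libraries. FPKM gives no depth. With 2 or 3 mice per group, 1 library could end a call. All values below are counts of rows or members called by limma, or log2 differences. Settings that let in rows with displaced values called more rows, out of many more tested. At 1 FPKM in 2 columns 14293 rows and 87 members were tested. With no filter 23746 rows and 91 members were, against 80 rows and 10 members in the main setting. At 1 FPKM in 2 columns and with no filter, the rows called were 72 and 84 for fasting in WT mice, 98 and 107 for fasting in p21KO mice, 73 and 83 for the genotypes when fed, 69 and 93 when fasted, 81 and 128 for the interaction and 98 and 158 for fasting over both genotypes. The members called under these 2 settings were 2 and 2 for the fed genotypes, 1 and 1 for the fasted genotypes, 0 and 1 for fasting over both genotypes, 0 in the first for fasting in p21KO mice and 1 in the second for the interaction. The members' median was then 0.18 and 0.10 for fasting in p21KO mice, 0.78 and 0.55 for the interaction and 0.26 and 0.23 for fasting over both genotypes.

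Other filters moved counts as well, with 215 rows tested at 20 FPKM, 456 at 10 FPKM and 38 at 100 FPKM in all columns. The members among them were 11, 13 and 7. At 20 and 10 FPKM in all columns, rows called were 22 and 33 (WT fasting), 44 and 31 (p21KO fasting), 1 and 3 (fasted genotypes), 1 and 3 (interaction) and 68 and 90 (both genotypes). At 100 FPKM they were 7 for p21KO fasting, with 0 members, and 16 over both genotypes, with 1 member. At 10 FPKM, 0 members were called for p21KO fasting and 1 over both genotypes. That 1 was a gene not tested in the main setting, and the 4 members called there were not called at 10 FPKM. On the compared groups alone, 28 rows were called for WT fasting and 7 for p21KO fasting, with 0 members.

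With columns at the same median, 18 rows and 3 members were called for WT fasting and 26 rows and 4 members for p21KO fasting, where the members' median was -0.29. Rpl24 (0.030), Rplp1 (0.047), Rps27l (0.044) and Rps3a (0.054) turned positive between fed genotypes and Rplp1 (0.021) between fasted ones, and the interaction turned negative for Rpl10 (-0.015), Rpl19 (-0.024), Rplp1 (-0.027) and Rps3a (-0.019). With columns at the same sum, 7 rows were called for WT fasting and 0 members for p21KO fasting or over both genotypes, and the members' median was 0.14 (p21KO fasting), 0.16 (fasted genotypes), 0.32 (interaction) and -0.032 (both genotypes). Rpl10 (0.15) and Rpl7a (0.14) then turned positive for p21KO fasting and Rpl37a (0.068), Rplp1 (0.15), Rps21 (0.033) and Rps23 (0.057) for the fasted genotypes. Quantile normalization reversed Rpl19 for WT fasting (0.0053), Rpl10 for p21KO fasting (0.036), Rps3a for the fed genotypes (0.027) and the interaction (-0.027), and Rplp1 (0.033) and Rps23 (0.028) for the fasted genotypes.

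Deviations of same-numbered libraries correlated at -0.27 to 0.17 over 12 pairs. Some of these values repeat, because the deviations in a group of 2 libraries mirror each other. The correlations therefore cannot settle whether replicate numbers paired the libraries. With a replicate block, 3 rows were called for WT fasting and 2 for p21KO fasting, with 0 members.

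Leaving out each library in turn gave 4 to 16 rows for WT fasting, 4 to 22 for p21KO fasting with 0 to 1 members, 0 to 3 for the fed genotypes, 0 to 2 for the fasted genotypes, 0 to 3 for the interaction, and 13 to 30 over both genotypes with 0 to 4 members. Rows for WT fasting were 5 and 4 without WT fed replicates 1 and 3 and 6 and 4 without WT fasted replicates 1 and 2. Rows for p21KO fasting were 4, 8 and 7 without WT fed replicates 1, 2 and 3, 6 without either WT fasted library or p21KO fed replicate 2, and 5 and 22 without p21KO fasted replicates 1 and 2. The members' median ranged from -0.18 to 0.10 for the fasted genotypes and from -0.095 to 0.21 for the interaction. Between fed genotypes Rpl24 ranged from -0.22 to 0.026, Rplp1 from -0.26 to 0.094 and Rps21 from -0.39 to 0.10. Between fasted genotypes Rpl10 ranged from -0.036 to 0.070, Rpl7a from -0.013 to 0.20, Rplp1 from -0.18 to 0.15 and Rps23 from -0.28 to 0.066. For the interaction Rpl19 ranged from -0.062 to 0.20, Rpl24 from -0.088 to 0.29, Rplp1 from -0.11 to 0.24 and Rps3a from -0.083 to 0.23. The causes of these moves were not tested. The other 326 values of counts and medians stayed within the limits set for a change. For a median, the limit was a move of 0.128, the pooled SD within groups of the libraries' median log2 level. This is about as large as the members' median itself for p21KO fasting (-0.13). Staying within the limit therefore does not show that such a median held. Of the single genes' values, 810 kept their direction and side of the threshold, 39 reversed (given above as values or ranges), 51 lost a call and 8 gained one.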

Other observations

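Rpl22l1, the paralogue of Rpl22, was below the 50 FPKM needed for the comparisons in all but 1 library and was chosen after its values had been seen. It had 52.3, 45.7 and 35.8 FPKM in fed WT, 20.98 and 26.0 FPKM in fasted WT, 42.7 and 35.4 FPKM in fed p21KO and 27.7 and 15.96 FPKM in fasted p21KO mice. All 4 fasted values (15.96 to 27.7 FPKM) lay below all 5 fed values (35.4 to 52.3 FPKM), as in 18.8% of the 80 rows. Among the 456 rows with at least 10 FPKM in all 9 columns, a filter added later, its difference on the log2(FPKM + 1) scale was -0.89 in WT (SE 0.27) and -0.85 in p21KO mice (SE 0.29). These are the largest differences in size among the 13 members that passed that filter. No test is given, since the gene was chosen for this pattern. Of the 456 rows, 90 were called by limma over both genotypes, 63 of them lower in fasted mice. How many of the 456 rows had no overlap was not counted. Outside the reference library, values under 50 FPKM may belong to another gene.

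Rps19bp1, whose protein binds a ribosomal protein, had 4.11 to 5.70 FPKM over the 9 libraries, so its highest value was 1.39 times its lowest. Some single values stood apart on their rows. Rpl27 held 204.7 FPKM in WT fasted replicate 1 and 0.021 FPKM in p21KO fasted replicate 1, against 73.5 to 101.1 FPKM in the other 7 libraries. Rpl29 held 247.3 FPKM in p21KO fed replicate 1, 1.11 FPKM in p21KO fed replicate 2 and 68.8 FPKM in p21KO fasted replicate 1, against 104.8 to 141.9 FPKM in the other 6. Whether these values belong to the named genes was not tested.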
